A study of Homo sapiens with 2 samples.

Results

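The MHC class I presentation genes described here are HLA-B, HLA-C, HLA-E, HLA-F, B2M, TAP1, TAP2, PSMB8 and PSMB9. They were chosen by name, as 9 genes of the 19775 that the platform annotation names by a single symbol, and every probe set carrying one of these symbols was taken. There were 23 such probe sets, and 0 of them carried a second symbol. Gene expression was measured in AGS, an established human line of gastric adenocarcinoma epithelium. There were 2 Affymetrix arrays, 1 of control AGS cells and 1 of AGS cells in which galectin-3, a beta-galactoside-binding lectin encoded by LGALS3, was silenced with a synthetic double-stranded small interfering RNA. Treatment of the control cells and the time after transfection were not given in the sources used here. Both arrays were set against each other to see how expression in AGS differs once galectin-3 is silenced.

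MHC class I molecules show fragments of a cell's own proteins to cytotoxic T cells. The proteasome cuts cytosolic proteins into peptides, the TAP1-TAP2 transporter pumps the peptides into the endoplasmic reticulum, and there they are loaded onto a heavy chain (such as HLA-B or HLA-C, or the less variable HLA-E, HLA-F and HLA-G) that is paired with beta-2 microglobulin, the product of B2M. PSMB8 and PSMB9 are catalytic subunits of the immunoproteasome, a form of the proteasome that interferons induce in many cell types. Interferon also raises the heavy chains and TAP1, and NLRC5 is a transactivator of this gene group.

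Most of these genes were higher on the silenced array, all but PSMB9 by less than 2-fold. PSMB9 was 2.43-fold higher, HLA-B 1.77-fold, HLA-C 1.75-fold and TAP1 1.61-fold, each by the probe set that stands for the gene. B2M was 1.16-fold higher, a difference that turned to a log2 ratio of -0.02 under another scaling, and TAP2 was 1.28-fold lower. A size rule of at least 2-fold was used, since 1 array per group allows no test, no replicate error and no p-value. By that rule 1 of the 8 genes measured, PSMB9, was higher and 0 were lower, beside 3.31% of all 10514 genes measured that were at least 2-fold higher and 3.07% that were at least 2-fold lower. The median log2 ratio of silenced over control was 0.59 over the 8 genes and -0.02 over all genes.

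A signal counted as measured above a floor, the 95th percentile of an array's 135 olfactory receptor probe sets (138.4 on the control and 109.5 on the silenced array). Of the 23 probe sets, 19 were above it on both arrays and 4 under it on both, so none was kept by its signal on a single array. Of these 19, 17 had a log2 ratio above 0 and 2 below it, while 47.4% of all 20338 such probe sets on the arrays had a ratio above 0. With the poly-A controls set equal, which lowers every ratio, 14 of the 19 stayed above 0. At least 2-fold higher were 3 of the 19, 1 each for HLA-B, HLA-C and PSMB9, beside 3.12% of all probe sets measured, and 0 were at least 2-fold lower, beside 3.09%. At least 1.5-fold higher, a size chosen after the values were seen, were 10 of the 19, beside 10.2% of all probe sets. As much lower were 0, beside 11.1%. Of these 10, 8 were HLA probe sets, and the others were those of TAP1 and PSMB9. By the probe set that stands for each gene, HLA-B, HLA-C, TAP1 and PSMB9 passed, 4 of 8, beside 10.6% of all genes, and 10.4% of all genes were as much lower. Probe sets of the same gene read the same RNA, and those of different HLA genes can read the same transcripts, so the 19 are not independent measurements. Ratios are set below against an SD of 0.32, the spread among probe sets of the same gene over 4728 genes, which comes from single arrays and not from repeat cultures. It is the spread of a single ratio. A difference between 2 ratios spreads more, so multiples of this SD overstate how distinct 2 genes are.

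**Figure D1:**
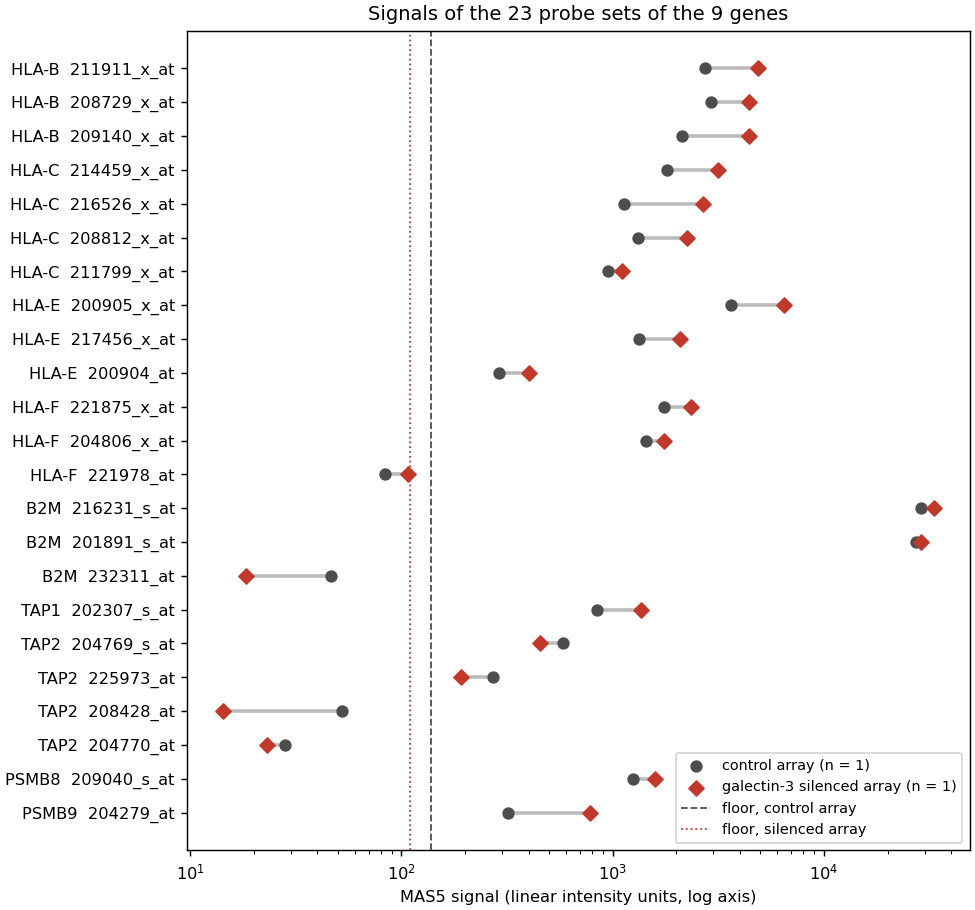
Signal of each of the 23 probe sets on the control array (circles) and the silenced array (diamonds), on a log axis in MAS5 intensity units, with the floor of each array as a vertical line. All 12 HLA probe sets above the floor lie further right on the silenced array (11 would if the poly-A controls were set equal), both TAP2 probe sets above the floor lie further left, and the 2 bright B2M pairs nearly coincide.

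The immunoproteasome subunits differed from each other. PSMB9 (LMP2), read by the single probe set 204279_at, had a signal of 319.7 in the control and 777.6 after silencing, a log2 ratio of 1.28. That ratio was higher than those of 98.7% of the 20338 probe sets, and it was the highest among the 9 genes. PSMB8 (LMP7), read by 209040_s_at, had signals of 1247 and 1582, a log2 ratio of 0.34, or 1.27-fold. The ratio of PSMB9 exceeded that of PSMB8 by 0.94, which is 2.95 times the SD between probe sets. In the immunoproteasome PSMB9 takes the place of PSMB6, PSMB8 that of PSMB5 and PSMB10 that of PSMB7. PSMB6 and PSMB5 had log2 ratios of -0.02 each, so that the inducible subunit's ratio lay 1.30 above that of its counterpart for PSMB9 and 0.37 above it for PSMB8. PSMB10, the remaining inducible subunit, had signals of 1032 and 928.9, a log2 ratio of -0.15, which was 0.10 above that of PSMB7 at -0.25. Of the 3 inducible subunits only PSMB9 was past 2-fold.

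The transporter subunits went opposite ways. TAP1, read by 202307_s_at, had signals of 847 and 1367, a log2 ratio of 0.69. TAP2 was read by 2 probe sets above the floor, 204769_s_at with signals of 579.9 and 453.3 and 225973_at with 272.2 and 190.6. Their log2 ratios were -0.36 and -0.51, so both were lower on the silenced array, by 1.28-fold and 1.43-fold. Another 2 TAP2 probe sets, 208428_at and 204770_at, were under the floor on both arrays. The ratio of TAP1 exceeded that of TAP2 by 1.05, or 3.28 times the SD between probe sets. TAP2 was the only one of the 8 measured genes with a ratio below 0.

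The HLA heavy chains were higher. Of the 13 probe sets of HLA-B, HLA-C, HLA-E and HLA-F, 12 were above the floor, and all 12 had a ratio above 0, from 0.22 to 1.24 with a median of 0.71, although the lowest was -0.01 under a scaling that sets the poly-A controls equal. Their direction rests largely on probe sets of the _x_at kind, a suffix the manufacturer gives to probe sets with probes that can match other transcripts: 11 of the 12 had it. HLA genes are near-identical over long stretches and differ between people, so these values cannot be assigned wholly to 1 HLA gene, and how well the probes match the alleles of AGS was not tested. All 2037 _x_at probe sets above both floors had a median log2 ratio of -0.03, and 2.6% of them were at least 2-fold higher. Over all 9 genes, the 11 _x_at probe sets above both floors had a median log2 ratio of 0.77. The 8 others had a median of 0.28, with 6 of them above 0.

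HLA-B had signals of 2746 and 4861 on 211911_x_at, 2929 and 4399 on 208729_x_at, and 2119 and 4424 on 209140_x_at. The silenced array was higher on each, by log2 ratios of 0.82, 0.59 and 1.06, and the SD over these 3 probe sets was 0.24. HLA-C had 4 probe sets, with signals of 1805 and 3160 on 214459_x_at, 1128 and 2667 on 216526_x_at, 1315 and 2249 on 208812_x_at, and 946.5 and 1106 on 211799_x_at. Their log2 ratios of 0.81, 1.24, 0.77 and 0.22 had an SD of 0.42, the widest among the 6 genes that several probe sets measured, and 211799_x_at stood well below the others. Both genes encode classical heavy chains, which present peptides to cytotoxic T cells and are also read by receptors of natural killer cells.

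HLA-E, which presents leader peptides of other class I chains to natural killer cell receptors, had the only HLA probe set above the floor that is not of the _x_at kind. That probe set, 200904_at, was dim, with signals of 288.4 and 403.4 and a log2 ratio of 0.48. The brighter 200905_x_at had 3633 and 6439 and 217456_x_at had 1326 and 2075, with log2 ratios of 0.83 and 0.65. The choice between them moved the HLA-E value from 1.40-fold to 1.77-fold. HLA-F, a nonclassical heavy chain, had signals of 1754 and 2356 on 221875_x_at and 1439 and 1753 on 204806_x_at, with log2 ratios of 0.43 and 0.28. Its probe set without the suffix, 221978_at, had 83.4 and 107.5 and was under the floor on both arrays. Because that probe set stands for the gene under the rule used, HLA-F has no value among the 8 measured genes.

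B2M, the light chain shared by all class I molecules, was among the brightest transcripts on the arrays. Its probe set 216231_s_at had signals of 28727 and 33205 and 201891_s_at had 27205 and 28878, with log2 ratios of 0.21 and 0.09. Only 210 of the 54675 probe sets had a higher control signal than 216231_s_at. Both ratios were smaller than the SD between probe sets, and whether array signals this bright still rise in proportion to RNA was not tested. The third B2M probe set, 232311_at, was under the floor on both arrays. The ratio of HLA-B exceeded that of B2M by 0.62 and that of HLA-C by 0.60, or 1.93 and 1.88 times the SD between probe sets.

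In the order of the gene ratios, PSMB9 came first at 1.28, followed by HLA-B at 0.82, HLA-C at 0.81, TAP1 at 0.69, HLA-E at 0.48, PSMB8 at 0.34, B2M at 0.21 and TAP2 at -0.36. Only the step from PSMB9 to HLA-B, 0.46, and the step from B2M to TAP2, 0.56, exceeded the SD between probe sets of 0.32. From HLA-B to B2M neighbours in this order did not differ beyond that spread. A step is a difference between 2 ratios, which spreads more than a single ratio, so passing this SD does not by itself set genes apart. With 2 arrays each gene has a single ratio, so no other genes were sought by likeness of pattern.

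**Figure D2:**
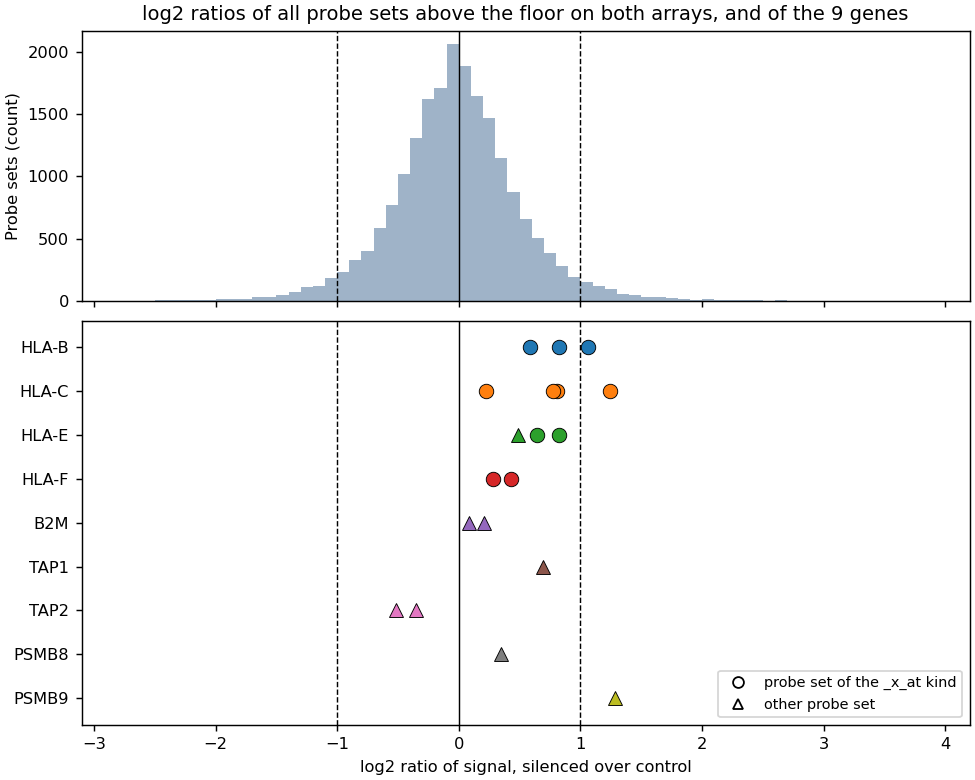
Upper panel, number of probe sets by log2 ratio of silenced over control for the 20338 probe sets above both floors. Lower panel, the 19 probe sets of the 9 genes that were above it (circles, _x_at kind; triangles, others), with dashed lines at 2-fold: 17 lie right of 0, 3 lie past 2-fold, and those of TAP2 lie left of 0.

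TAP2, PSMB8, TAP1 and PSMB9 follow each other on chromosome 6 in the order given, without another protein-coding gene between them in the RefSeq table, inside the class II region of the MHC. Neighbours thus had unlike ratios, -0.36, 0.34, 0.69 and 1.28 in that order. TAP1 and PSMB9 are transcribed away from each other, and their start sites lie 488 bases apart in RefSeq's GRCh38.p14 promoter windows. HLA-C and HLA-B, also direct neighbours, had ratios of 0.81 and 0.82. B2M lies on chromosome 15.

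Promoter sequence is shown because the class I genes share regulatory elements that interferon-responsive factors use. RefSeq windows from 250 bases before to 50 after a start site were found for 8 of the 9 genes, HLA-E not being among them, and made 10 windows since PSMB8 and TAP1 have 2 starts each. The stretches below run from base -190 to base -31 before the start, 5′ to 3′ on the gene's strand, and are reference sequence rather than that of AGS. Capitals mark matches on either strand to AANNGAAA, the core bound by interferon regulatory factors.
HLA-B, chr6:31357210-31357369, minus strand: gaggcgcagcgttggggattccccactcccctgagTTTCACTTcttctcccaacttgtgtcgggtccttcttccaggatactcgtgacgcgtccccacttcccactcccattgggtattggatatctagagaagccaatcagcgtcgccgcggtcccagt
HLA-C, chr6:31272123-31272282, minus strand: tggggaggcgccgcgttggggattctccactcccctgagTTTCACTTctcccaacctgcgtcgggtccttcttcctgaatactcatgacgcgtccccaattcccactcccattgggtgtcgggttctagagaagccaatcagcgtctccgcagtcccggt
HLA-F, chr6:29723244-29723403, plus strand: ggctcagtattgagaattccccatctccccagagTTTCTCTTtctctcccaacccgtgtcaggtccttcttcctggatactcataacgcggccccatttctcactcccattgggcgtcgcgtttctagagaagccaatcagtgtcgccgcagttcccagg
B2M, chr15:44711327-44711486, plus strand: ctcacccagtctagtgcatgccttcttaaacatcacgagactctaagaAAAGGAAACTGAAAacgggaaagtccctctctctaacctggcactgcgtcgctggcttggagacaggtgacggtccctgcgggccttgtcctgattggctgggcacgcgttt
TAP1, chr6:32853735-32853894, minus strand: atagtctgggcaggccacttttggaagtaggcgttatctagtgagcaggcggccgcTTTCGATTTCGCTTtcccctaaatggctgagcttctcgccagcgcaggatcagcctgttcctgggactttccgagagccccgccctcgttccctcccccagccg
PSMB9, chr6:32854002-32854161, plus strand: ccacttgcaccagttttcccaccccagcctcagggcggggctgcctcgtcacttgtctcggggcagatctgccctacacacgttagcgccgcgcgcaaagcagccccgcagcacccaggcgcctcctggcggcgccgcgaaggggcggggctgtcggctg
TAP2, chr6:32838770-32838929, minus strand: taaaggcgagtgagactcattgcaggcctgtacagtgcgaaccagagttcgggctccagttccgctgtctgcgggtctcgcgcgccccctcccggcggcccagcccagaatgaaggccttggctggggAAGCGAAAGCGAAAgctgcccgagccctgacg

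The core was found in windows of 7 of the 8 genes, PSMB9 being without it, and in 22.8% of all 35116 promoter windows of this length. A gene with 2 windows counted if either matched, whereas this share and those below are of single windows. Gene counts and window shares are thus not like for like. The TAP1 match shown lies 354 bases before the PSMB9 start, outside the PSMB9 window. For PSMB8 the match begins 4 bases before 1 of its 2 starts, beyond the stretch shown, and is not printed. The longer form GAAANNGAAA, which contains the core, was found for B2M, HLA-F, PSMB8, TAP1 and TAP2, and in 3.57% of all windows. PSMB9, at 1.28, held neither form, and HLA-B at 0.82 and HLA-C at 0.81 held only the core. The longer form was held by TAP1 at 0.69, PSMB8 at 0.34, B2M at 0.21 and TAP2 at -0.36. HLA-F, with probe sets at 0.43 and 0.28, held it too. Whether the form of the motif goes with the ratio was not tested. An NF-kB motif was found for HLA-B, HLA-C, B2M and TAP1, and in 5.91% of all windows. TTCNNNGAA, the element bound by STAT dimers, was found for PSMB8 and TAP1, in 1 of the 2 windows of each, and in 7.66% of all windows. For TAP1 it was the window of the other start, which is not printed, and the printed TAP1 stretch has no match. The letters TGACG were found for 6 of the 8 genes and in 24.6% of all windows. CCAAT was found for 6 of the 8 and in 34.6% of all windows, and PSMB9 held both. The printed HLA-B and HLA-C stretches were 86.6% identical, HLA-B and HLA-F 80.9%. A match describes letters and not binding, which was not measured.

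Other parts of the presentation pathway were read by the same 2-fold rule, passed upward by 3.31% of all genes measured and downward by 3.07%. The lists are short, so a count of 0 past 2-fold lies near these shares and says little about a list. Of 10 genes listed for peptide trimming and loading, 8 were measured. By the probe set that stands for each gene, 0 were at least 2-fold higher or lower, 6 had a ratio below 0 and the median log2 ratio was -0.24. The lowest were the aminopeptidases that trim peptides in the endoplasmic reticulum. ERAP1 had signals of 480.8 and 282.2, 1.70-fold lower, and a second probe set with 310.3 and 213.1 was 1.46-fold lower. ERAP2 had 611.9 and 363.4, 1.68-fold lower, and its 3 other probe sets above the floor had log2 ratios of -0.61, -0.90 and -1.19. Tapasin, encoded by TAPBP, which bridges TAP and the heavy chain, had signals of 1666 and 1713, a log2 ratio of 0.04. The chaperones had log2 ratios of -0.47 for CALR, -0.30 for CANX and -0.18 for PDIA3, and a dimmer CANX probe set with signals of 516.9 and 246.3 was at -1.07.

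Of 7 listed immunoproteasome partners and proteasome activators 6 were measured, with a median log2 ratio of 0.02 and 0 past 2-fold by the probe set that stands for each gene. That median turned to -0.21 under the poly-A scaling and lay below 0 under 3 other alternatives. PSME1, a subunit of the interferon-induced 11S activator, had signals of 10238 and 12094, a log2 ratio of 0.24, and PSME4, another activator, had -0.24 on its brightest probe set and 0.20 and 0.32 on its other 2. PSME3, a further activator, had a probe set with signals of 554.2 and 252.9, 2.19-fold lower, while the one that stands for the gene was at 0.07. PSME2 is not named by a single symbol in the table used. Of 14 genes of the constitutive 20S core 13 were measured, from -0.35 for PSMA7 and -0.32 for PSMB3 to 0.03 for PSMB4, with 12 below 0 and 0 past 2-fold, and a median of -0.07 that turned to 0.11 with the hybridization controls set equal. Of 21 genes of the 19S regulator, which feeds proteins into the core, 17 were measured, with a median of 0.01, or -0.22 under the poly-A scaling, and the largest ratios -0.49 for PSMD11 and -0.26 for ADRM1. The highest ratio among these 20S and 19S genes was 0.22, beside 1.28 for PSMB9.

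Among 16 listed transcription factors of class I genes 13 were measured, 1 was at least 2-fold higher, 0 were lower, and the median log2 ratio was 0.16, or -0.07 with the poly-A controls set equal. Of the 12 above both floors, 8 had a ratio above 0 and 4 below it by the probe set that stands for each gene. The lowest were RFX5 at -0.43 and CREB1 at -0.38. IRF9, the DNA-binding part of the complex that type I interferon activates, was 2.45-fold higher, with signals of 1581 and 3878. NLRC5 had 135.2 on the control array, just under the floor, and 264.3 on the silenced array, so it was at least 1.91-fold higher against the floor. IRF1, a factor that binds the class I promoters, had signals of 425.2 and 572.8 and of 246.9 and 343.1 on its 2 probe sets, log2 ratios of 0.43 and 0.47.

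Of 22 other class I and class I-like genes listed, 8 were measured, with 0 past 2-fold by the probe set that stands for the gene. Their median log2 ratio of 0.10 has no settled sign, since it was -0.14 under the poly-A scaling, -0.12 without _s_at and _x_at probe sets and 0.33 with the array median as floor. FCGRT, the neonatal Fc receptor heavy chain, which also pairs with beta-2 microglobulin, had signals of 833.6 and 1451, 1.74-fold higher. HLA-G had 4 probe sets, all of the _x_at kind, with log2 ratios of 0.61, 0.45, 1.20 and 0.21, a range close to that of HLA-C, and these could read other HLA transcripts.

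Genes of MHC class II presentation, which shows peptides from outside the cell and in most epithelia needs interferon gamma, were near or under the floor. Of 13 listed, 2 were measured by the probe set that stands for the gene. HLA-DMA had signals of 159.9 and 199.8 and HLA-DMB 180.4 and 147, log2 ratios of 0.32 and -0.30. All probe sets of HLA-DRA, CD74 and the class II transactivator CIITA were under the floor on both arrays.

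**Figure D3:**
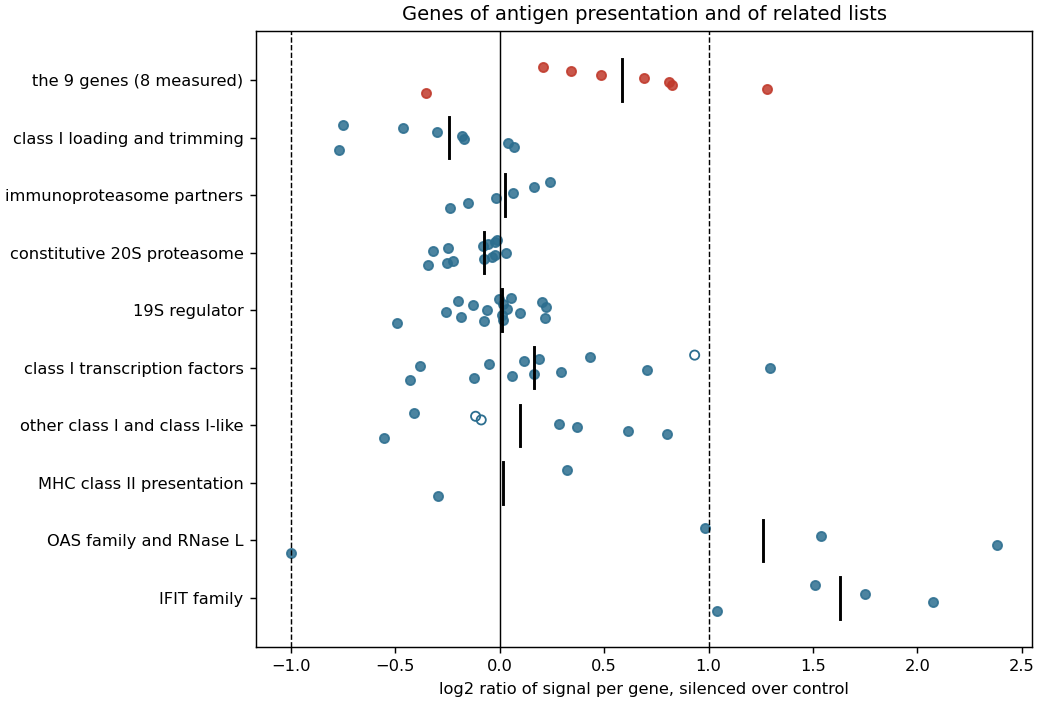
log2 ratio of silenced over control for each measured gene of the 9 class I genes (red) and of 9 lists (blue), with the list median as a black bar and dashed lines at 2-fold. Open points were above the floor on 1 array only, and 2 of them, in the class I-like list, have no settled direction. The class I median of 0.59 lies right of those of the proteasome lists at -0.07 and 0.01 and left of the OAS median of 1.26 and the IFIT median of 1.63.

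Several genes of 2 interferon-induced families outside antigen presentation had larger ratios on the same arrays. All 4 measured IFIT genes, RNA-binding antiviral proteins, were at least 2-fold higher, from IFIT5 at 1.04 and IFIT3 at 1.51 to IFIT1 at 1.75 and IFIT2 at 2.08, with a median of 1.63. Of 4 measured genes of the OAS family, sensors of double-stranded RNA, OAS1 at 2.38 and OAS2 at 1.54 were past 2-fold, OASL was at 0.98 and OAS3 at -0.998, with a median of 1.26. A second OAS3 probe set, with signals of 118.4 and 430.0, was at least 3.11-fold higher against the floor, so OAS3 has no settled direction. By the probe set that stands for each gene, no class I gene, with PSMB9 highest at 1.28, reached OAS1, OAS2, IFIT1, IFIT2 or IFIT3, whereas IFIT5 and OASL lay below PSMB9. Other probe sets differed, with OASL at 1.28 on a second one and OAS2 at 0.55 on another. OAS3 lay below or above PSMB9 depending on the probe set. The difference between the class I genes and these families was not tested, since each group of cells has 1 array.

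The arrays and labels were checked first against LGALS3, which was 7.48-fold lower, with signals of 20206 and 2700. Leukocytes express class I genes strongly, and their markers were looked at in both samples. Of 13 listed markers named on the array, 1 was above the floor, CD53 with 158.3 and 163.8, and the summed signal of all was 625.9 and 791.4. PTPRC, CD3D, CD3E, CD14 and MS4A1 were under the floor on both arrays. Of 12 gastric epithelial markers 6 were above the floor, among them KRT8, KRT18, KRT19 and EPCAM, and the largest log2 ratios were 0.84 for CDH1, with signals of 298.1 and 532, and 0.68 for KRT19. MUC1, at -0.34, was the only one of the 6 below 0 by the probe set that stands for each. The other 6, CLDN18, TFF1, TFF2, GKN1, MUC5AC and MUC6, were under the floor on both arrays on every probe set. Of 8 fibroblast markers 3 were measured, and PDGFRA, a growth factor receptor, was 2.49-fold lower on 1 probe set, with 2296 and 921.1, but at 0.70 on another, with 160.9 and 261.4. In RNA from whole cultures, more RNA per cell and a larger share of expressing cells cannot be told apart.

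The scaling of the arrays shifted all ratios together. With the hybridization controls set equal every ratio was 0.18 higher, which carried HLA-B to 1.01 and past 2-fold, and with the poly-A controls set equal every ratio was 0.23 lower, which put B2M at -0.02. Relative to the median of all genes the class I median was 0.60 under the deposited scaling and under both of these. That value could not differ, since both scalings add the same amount to every ratio. Of all genes past 2-fold, 51.9% were higher as deposited, 75.9% with the first of these scalings and 22.7% with the second. PSMB9 stayed past 2-fold in all 6 scalings, from 1.05 to 1.46, and TAP2 stayed below 0, from -0.59 to -0.17.

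**Figure D4:**
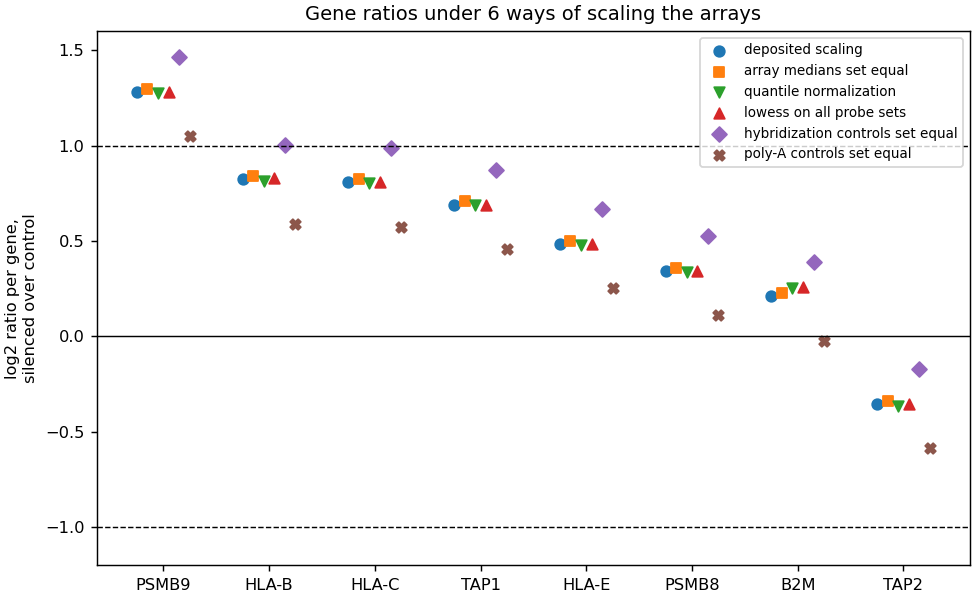
log2 ratio of silenced over control for the 8 measured genes under 6 ways of scaling the arrays, with dashed lines at 2-fold. The order of the genes hardly changes, and cannot change where a scaling adds the same amount to every ratio. PSMB9 lies above 1 under each scaling, TAP2 lies below 0 under each, and B2M crosses 0 with the poly-A controls set equal.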

How the data were processed

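Trizol was used to extract total RNA, from which biotinylated cRNA was made for Affymetrix arrays, per the labels' protocols. Each deposited value is the intensity of a probe set on a linear scale, which the authors computed using MAS5, per the submitters' processing notes. Its version, the scaling target and any filter were not given in the sources used here. Mean signal after trimming 2% at each end was 500.07 on both arrays, so the deposited scaling was kept. MAS5 scales arrays to a common mean, so a change in the total RNA of a cell would not be seen.

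Gene names came from the platform annotation, in which 41097 carry 1 symbol, 1801 several and 11777 none. Signals under the floor were raised to it. A gene took the probe set of highest mean log2 signal, _x_at probe sets being left out where it had another. Ratios are log2 of silenced over control. Analyses ran in Python 3.11.15 with pandas 2.3.3, and the procedure was tested on simulated data. Named genes are all 9 genes with every probe set, LGALS3, preset pathway genes, and in each list those past 2-fold, or the 2 largest. CALR, CANX, PDIA3, PSMB4, PSME3, OASL, OAS3 and the markers other than CDH1, KRT19, CD53 and PDGFRA were added after their values were seen. So were RFX5, CREB1, HFE, MICA, HLA-DRA, CD74 and CIITA. The genes and lists were chosen with earlier results of these data known. Of the marker lists for other cells, 3 of 8 fibroblast genes and 1 of 6 endothelial genes (PECAM1, above the floor on 1 array only, with no settled direction) were measured, with summed signals of 4336 and 3651, and of 458.1 and 321.8. In all, 13 alternatives in scaling, floor and choice of probe set were planned. Precision is limited by the number of arrays.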

Additional observations from a re-analysis of the deposited data

How the results depend on the processing

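No paired analysis was possible because each group has 1 array, and no array could be left out. The median over the class I genes kept its sign under all 13 alternatives and ran from 0.35 to 0.77. The genes were not the same throughout. Without _s_at and _x_at probe sets only 3 remained, HLA-E, TAP2 and PSMB9, and with HLA-F measured there were 9 in place of 8. The count of genes at least 2-fold higher was 1 with the reported settings, 2 with the hybridization controls set equal and 4 with a 1.5-fold rule. The count of probe sets was 3, and became 5 with the hybridization controls set equal, 1 without _s_at and _x_at probe sets, which leaves 3 probe sets measured, and 10 with the 1.5-fold rule. Across the 9 pathway lists, 7 of 75 measured genes were past 2-fold, of which 2 are OAS genes, 4 IFIT genes and 1 is IRF9, beside 6.38% of all genes in either direction. Without a floor, where more dim genes enter, 18 of 97 were past it, beside 24.9% of all genes. The 1.5-fold rule and the alternatives for the lists were chosen after the data were seen. Among single genes 1 value moved by more than the SD between probe sets, HLA-E, at 0.83 with _x_at probe sets allowed. Without a floor, or with the array median as the floor, HLA-F was also measured. Too dim to give a ratio were 11 of 13 class II genes and 12 of 13 leukocyte markers named on the array.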
